A study of Mus musculus with 6 samples.

Results

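Mitochondria of muscle fibres fuse, divide and are removed, and 7 genes of these steps were followed in the gastrocnemius muscle of young and aged mice: Mfn1, Mfn2 and Opa1 for fusion, Dnm1l, Fis1 and Mff for fission, and Pink1 for mitophagy. The members were all non-control probes of the arrays whose RefSeq accession belongs to 1 of these gene symbols. They made up 12 probes of 55681, and the 7 genes were among 20901 genes tested. Probes without a gene symbol were counted as genes under their identifier on the array, so all genes tested include unnamed ones. All 12 probes were well above background on all 6 arrays, so no member was lost to the filter on dim probes.

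The arrays were made from total RNA of the gastrocnemius, a calf muscle of mostly fast fibres, from male C57BL/6J mice. There were 3 young mice aged 13 weeks and 3 aged mice aged 26 months, with 1 single-colour Agilent array per mouse and no treatment named for either age. Age was the only labelled difference between the groups, and no age in between was measured here. The arrays lay on 1 slide, with all 3 young mice and aged mouse 1 in row 1 and aged mice 2 and 3 in row 2.

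Fusion of the outer membranes is carried out by the mitofusins Mfn1 and Mfn2, 2 related GTPases, and fusion of the inner membranes by the GTPase Opa1, which also shapes the cristae. Fission is carried out by DRP1, the dynamin-related GTPase encoded by Dnm1l, which assembles into rings on the outer membrane where receptors such as Mff recruit it. Pink1 is a kinase that builds up on damaged mitochondria and phosphorylates ubiquitin on them, which marks the organelle for removal by autophagy. In skeletal muscle, fusion joins the mitochondria between the myofibrils into a network, and the balance of fusion, fission and removal is widely studied in ageing.

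The sequences just upstream of the 3 fusion genes are shown because these genes act in fusion. Their means were lower in aged mice on every one of their probes, which also held for the 3 fission genes. Each is the 150 bases before the RefSeq start site in GRCm38.p6, written 5′ to 3′ on the strand of the gene, and capitals mark matches to motifs of 4 factors known to act on nuclear genes for mitochondrial proteins.
Mfn1 (chr3:32529332-32529481, forward strand): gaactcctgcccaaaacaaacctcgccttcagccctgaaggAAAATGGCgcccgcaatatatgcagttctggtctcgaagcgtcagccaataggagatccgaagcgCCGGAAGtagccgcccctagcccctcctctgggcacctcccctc
Mfn2 (chr4:147904910-147905059, reverse strand): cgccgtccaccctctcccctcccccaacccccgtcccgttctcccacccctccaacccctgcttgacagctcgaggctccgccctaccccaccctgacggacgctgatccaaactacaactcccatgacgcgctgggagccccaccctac
Opa1 (chr16:29579184-29579333, forward strand): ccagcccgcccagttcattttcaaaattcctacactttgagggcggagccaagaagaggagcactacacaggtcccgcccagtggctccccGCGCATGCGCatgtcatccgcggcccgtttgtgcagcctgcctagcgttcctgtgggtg
The motifs were searched on both strands as GCGCANGCG for NRF1, TNAAGGTCA for the ERR receptors, AANATGGC for YY1 and CCGGAAG for the ETS family. The Mfn1 window held a YY1 match at position -109 and an ETS match at -44, counted from the start site. In the Opa1 window, the capitals are 2 overlapping NRF1 matches, 1 on each strand, which begin at -59 and -58. The Mfn2 window shown, the most upstream of 3 listed start sites, held none of the 4 motifs, which says only that these letters are not in these bases. Over the 12 listed windows of the 7 genes, NRF1 was matched in 2 (Opa1 and Pink1), ERR in 0, YY1 in 3 (Mff and Mfn1) and ETS in 2 (Fis1 and Mfn1). Over 32851 windows of the same length, these motifs were present in 4.26%, 0.569%, 2.23% and 5.52%. A match is a description of the sequence and was not tested for binding.

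In aged mice, mean signals of 6 of the 7 genes were below those of young mice, with Mfn1 at 0.700-fold and Mfn2 at 0.716-fold the furthest from 1 and Dnm1l (0.986-fold) and Pink1 (1.04-fold) the nearest to it. No member passed an adjusted p of 0.05, and 53 of all genes, 0.254%, did. The values below are thus sizes with their errors, and none is a call. The median log2 difference of the 7 genes, aged minus young, was -0.29, and that of all genes tested was -0.06, with 56.9% of all genes lower in mean. A single member, Mfn2, had an unadjusted limma p under 0.05 in the lower direction, where 8.38% of all genes did. In 4 members, Mfn2, Opa1, Fis1 and Mff, every aged mouse lay below every young mouse, against 13.9% of all genes.

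**Figure D1:**
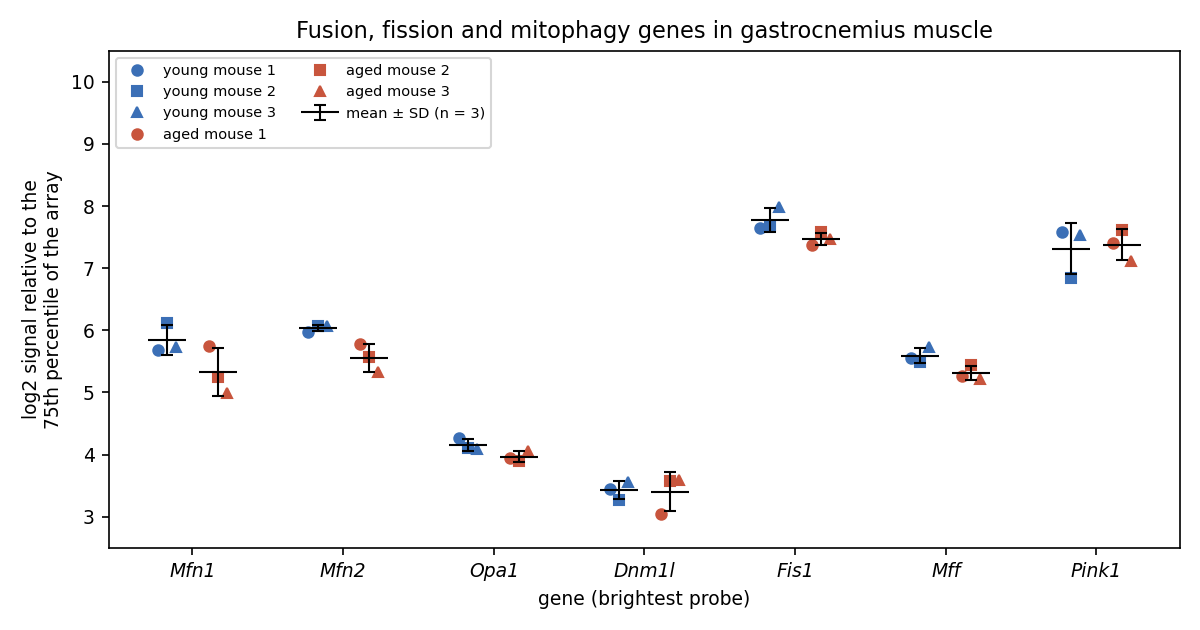
Log2 signal of the brightest probe of each gene, relative to the 75th percentile of its array, for each of the 3 young (blue) and 3 aged (red) mice, with the mean and SD of each group as bars. All aged mice lie below all young mice for Mfn2, Opa1, Fis1 and Mff, and the groups overlap for Mfn1, Dnm1l and Pink1.

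All signals here are log2 values of the processed signal relative to the 75th percentile of the same array, so a value of 0 is that percentile. A gene stands for its brightest probe. Since probes differ in brightness, levels are compared between mice, for 1 gene or for the same set of genes, and the levels of different genes are not ranked.

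For Mfn1, young mice 1 to 3 were at 5.68, 6.12 and 5.73, while the signals of aged mice 1 to 3 were 5.74, 5.26 and 4.99. Aged mouse 1 stood among the young mice, whereas aged mice 2 and 3 were below all of them. The means were 5.84 ± 0.24 in young mice and 5.33 ± 0.38 in aged mice (SD, n = 3 each), a log2 difference of -0.51 (SE 0.24, 95% confidence interval -1.09 to 0.06). This difference had an adjusted limma p of 0.392. The other Mfn1 probe had a log2 difference of -0.41 and the same order, with aged mouse 1 at 5.68 between young values of 5.33 and 5.92 and aged mice 2 and 3 at 5.05 and 4.82. Aged mouse 1 shared its row of the slide with the young mice, and within that row the Mfn1 difference was -0.10. Without aged mouse 1 it was -0.72, with adjusted p = 0.174.

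Mfn2 was at 5.98, 6.06 and 6.08 in the young mice and at 5.78, 5.57 and 5.33 in the aged mice. The young mice lay within 0.10 of each other and every aged mouse was below them. With means of 6.04 ± 0.05 and 5.56 ± 0.23, the log2 difference was -0.48 (SE 0.17, 95% confidence interval -0.89 to -0.07), with an unadjusted limma p of 0.028 and an adjusted p of 0.294. Of 2 dimmer Mfn2 probes, both assigned to another transcript of the gene, 1 had all aged mice below all young mice with a difference of -0.34, and the other overlapped with a difference of -0.21. On these 2 probes aged mouse 1 was again the nearest to the young mean, 0.04 and 0.003 below it. Within row 1 of the slide the difference of the brightest probe was -0.26.

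The Opa1 signal was 4.27, 4.10 and 4.09 in young mice and 3.95, 3.89 and 4.06 in aged mice. Aged mouse 3 and young mouse 3 were only 0.03 apart, although the groups did not overlap. The mean went from 4.15 ± 0.10 to 3.97 ± 0.09, and the log2 difference was -0.19 (SE 0.15, adjusted p = 0.594). A dimmer Opa1 probe separated the groups by more, with young mice between 3.68 and 4.005 and aged mice between 3.29 and 3.63, a difference of -0.42 with adjusted p = 0.376 over all probes. The Opa1 probes thus gave the same direction with unequal sizes.

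**Figure D2:**
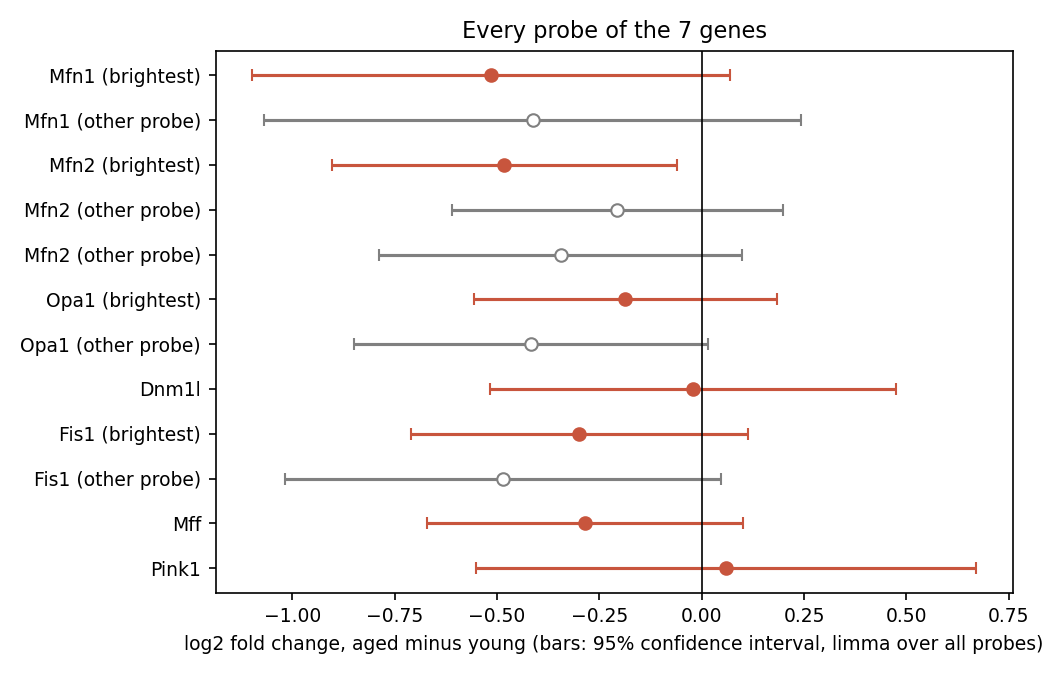
Log2 difference between aged and young mice for each of the 12 probes of the 7 genes, with the 95% confidence interval of the limma fit over all probes as bars and the probe that stands for the gene filled. The means of 11 of 12 probes lie below 0, and the interval of the brightest Mfn2 probe alone stays clear of 0.

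Among the fission genes, Dnm1l was at 3.44, 3.27 and 3.56 in young mice and at 3.05, 3.58 and 3.59 in aged mice. Aged mouse 1 was below all young mice, and aged mice 2 and 3 were above all of them. The means of 3.42 ± 0.15 and 3.40 ± 0.31 differed by -0.02 on the log2 scale (SE 0.21, 95% confidence interval -0.51 to 0.47). This interval still holds differences as large as that of Mfn2, so equal levels are not shown. The sign was not stable: it was positive under quantile normalization (0.01), and 0.16 and 0.05 without aged mouse 1 or young mouse 3.

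Fis1, an outer membrane protein long studied as a partner of DRP1, was at 7.64, 7.68 and 7.99 in young mice and at 7.37, 7.58 and 7.47 in aged mice. The groups did not overlap, and the nearest aged and young mice were 0.07 apart. The log2 difference was -0.30 (SE 0.17, adjusted p = 0.458), a level of 0.813-fold. A second, much dimmer Fis1 probe was at -1.63, -1.89 and -1.85 against -1.86, -2.44 and -2.52. There aged mouse 1 overlapped the young mice, and the difference was -0.49 with adjusted p = 0.396 over all probes.

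Mff, the receptor that recruits DRP1 to the outer membrane, was at 5.56, 5.49 and 5.73 in young mice and at 5.27, 5.44 and 5.22 in aged mice. The groups did not overlap, with young mouse 2 and aged mouse 2 only 0.05 apart. The log2 difference was -0.29 (SE 0.16, adjusted p = 0.452), a level of 0.821-fold. Within row 1 of the slide, the differences were -0.38 for Dnm1l, -0.40 for Fis1, -0.32 for Mff and -0.21 for Opa1.

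Pink1 was the member with the widest spread among young mice, at 7.58, 6.84 and 7.53, against 7.40, 7.61 and 7.12 in aged mice. Young mouse 2 was the lowest of all 6 mice and aged mouse 2 the highest. The log2 difference was 0.06 (SE 0.25, 95% confidence interval -0.55 to 0.66, adjusted p = 0.928). The sign was not stable: the difference was -0.18 without young mouse 2, -0.06 without aged mouse 2 and -0.09 with arrays scaled to their median.

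**Figure D3:**
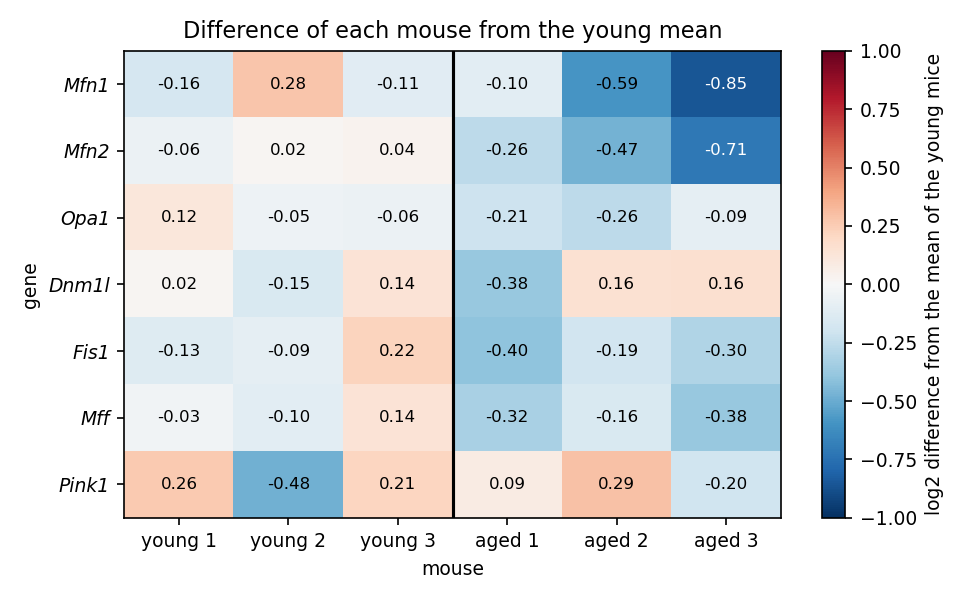
Difference of each mouse from the mean of the young mice, in log2 units, for each gene (rows) and mouse (columns, young mice left of the line). Aged mice 2 and 3 are lowest for Mfn1 and Mfn2, while aged mouse 1 is lowest for Dnm1l and Fis1.

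The aged mice did not share 1 profile over the 7 genes. Aged mouse 1 lay in row 1 of the slide and aged mice 2 and 3 in row 2, so differences between these mice and between the rows cannot be told apart. In aged mouse 1 the members furthest below the young mean were Fis1 (-0.40), Dnm1l (-0.38) and Mff (-0.32), and Mfn1 was only at -0.10. In aged mice 2 and 3 they were Mfn1 (-0.59 and -0.85) and Mfn2 (-0.47 and -0.71), and Dnm1l was above the young mean (by 0.155 and 0.161). Mfn2, Opa1, Fis1 and Mff were below all young mice in each aged mouse. Dnm1l was below them in aged mouse 1, and Mfn1 in aged mice 2 and 3. No share of all genes was taken for single mice. The median difference of the 7 genes was -0.26, -0.19 and -0.30 in aged mice 1 to 3, against -0.07, -0.01 and -0.08 for all genes tested.

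As a description of the balance between the steps, the mean of Mfn1, Mfn2 and Opa1 was set against that of Dnm1l, Fis1 and Mff within each array. The value itself depends on the brightness of the probes, so only its differences between mice are read. The fusion mean was 5.35 ± 0.07 in young and 4.95 ± 0.19 in aged mice, and the fission mean was 5.60 ± 0.15 and 5.40 ± 0.15. Fusion minus fission was -0.24, -0.05 and -0.46 in young mice and -0.07, -0.63 and -0.63 in aged mice. Aged mouse 1 lay inside the young range and aged mice 2 and 3 lay below it, so the groups overlapped and their difference of -0.19 was within the SD of either group (0.20 and 0.32). Within row 1 of the slide it was 0.18, the opposite direction. Without aged mouse 1 it was -0.38 and without young mouse 3 it was -0.30, and without young mouse 2, aged mouse 2 or aged mouse 3 it was -0.09, -0.10 and -0.10.

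A further 60 genes of the same steps were all measured, in 4 lists of direct partners. None passed an adjusted p of 0.05. In mean, 36 of 60 were lower and 24 higher in aged mice, with a median log2 difference of -0.13. By unadjusted limma p under 0.05, 4 (6.67%) were lower and 1 (1.67%) higher, where 8.38% and 6.07% of all genes were. All aged mice were below all young mice in 12 genes (20%) and above them in 2 (3.33%), where 13.9% and 7.92% of all genes were. The shares by p were below those of all genes in both directions, each on few genes. The share with all aged mice below all young mice was above that of all genes. None of these differences was tested.

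**Figure D4:**
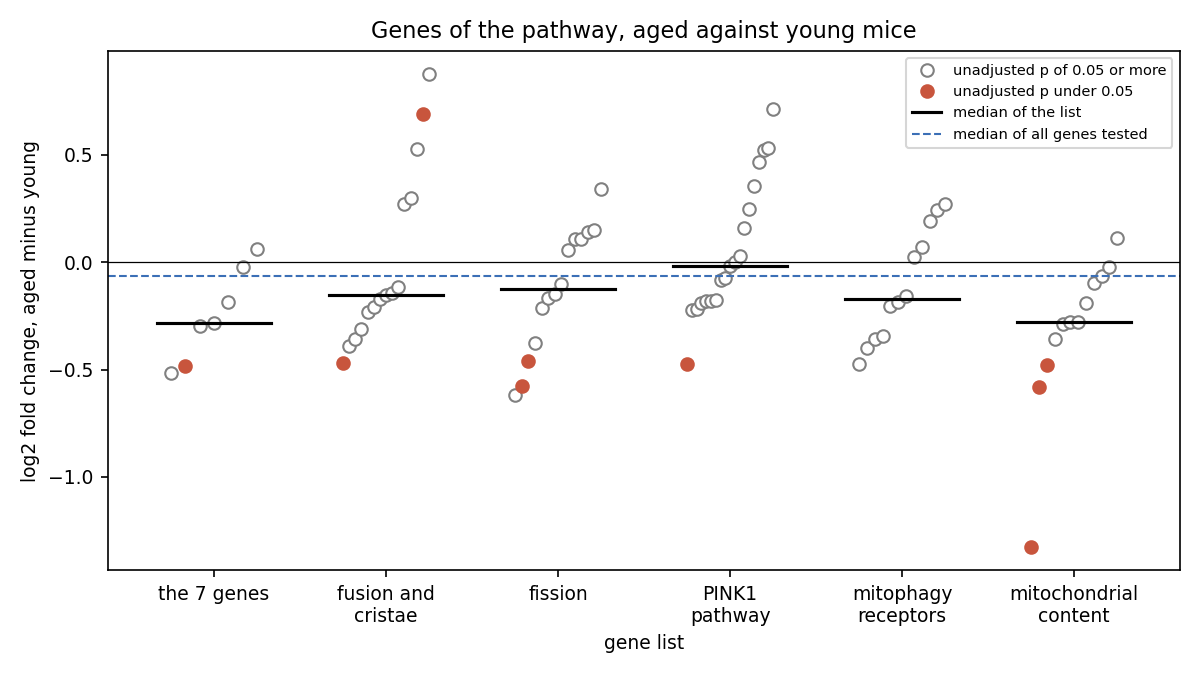
Log2 difference between aged and young mice for each gene of the 7 members, of the 4 lists of partners and of a list of mitochondrial content genes, with filled points for an unadjusted limma p under 0.05, a bar for the median of each list and a dashed line for the median of all genes. The medians of the members and of the content genes lie lowest, at -0.29 and -0.28.

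The fusion list held 15 genes of inner membrane proteases, prohibitins, cristae proteins and fusion cofactors, with 10 lower and 5 higher in mean and a median of -0.15. The 3 with the smallest p were Miga2, Apoo and Chchd3. Miga2, an outer membrane protein that promotes fusion, was at 3.46, 3.83 and 4.13 in young and 4.34, 4.51 and 4.64 in aged mice, a difference of 0.69 (SE 0.21, adjusted p = 0.239) with all aged mice above all young mice. Apoo and Chchd3 encode subunits of MICOS, the complex that holds the cristae junctions. Apoo had a difference of -0.47 (SE 0.17, adjusted p = 0.289), with its 2 other probes at -0.36 and -0.49. For Chchd3, the difference was -0.36 (SE 0.15, adjusted p = 0.357). In both, all aged mice were below all young mice.

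The proteases Oma1 and Yme1l1 cleave Opa1 into its short forms, Oma1 on stress and Yme1l1 constitutively. The Oma1 signal was 0.84, 0.11 and -1.38 in young mice and 0.66, 0.73 and 0.81 in aged mice. Its difference of 0.87 (SE 0.52, adjusted p = 0.478) rested on young mouse 3, and without that mouse it was 0.26. Yme1l1 had a difference of -0.21 (SE 0.16) with overlapping groups. The arrays measure mRNA and carry no information on this cleavage.

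The fission list held 14 genes, with 8 lower and 6 higher in mean and a median of -0.12. Mtfp1, an inner membrane protein linked to division, was at 6.79, 6.91 and 7.03 in young and 6.51, 6.36 and 6.14 in aged mice. All aged mice were below all young mice, at 0.671-fold. The difference of -0.58 (SE 0.17) had an unadjusted limma p of 0.012 and an adjusted p of 0.229. Inf2, a formin that polymerizes actin at sites of constriction, had a difference of -0.46 (SE 0.19, adjusted p = 0.340) and no overlap. Marchf5, a ubiquitin ligase of the outer membrane that acts on DRP1 receptors and mitofusins, had a difference of -0.38 (SE 0.17, adjusted p = 0.369) and no overlap. Its 2 other probes were at -0.32 and -0.26. Within row 1 of the slide, the differences were -0.40 for Mtfp1, -0.17 for Inf2 and -0.15 for Marchf5. The DRP1 receptors Mief1 and Mief2, which act beside Mff, had differences of 0.15 (SE 0.20) and 0.14 (SE 0.19) with overlapping groups.

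The list around Pink1 held 19 genes, with 11 lower and 8 higher in mean and a median of -0.02. Rhot2, a mitochondrial GTPase that anchors the organelle to motors, was at 6.76, 6.80 and 6.75 in young mice and at 6.43, 6.37 and 6.09 in aged mice. It did not overlap between the groups, with a difference of -0.47 (SE 0.16, adjusted p = 0.278) and a second probe at -0.37. Nbr1, an autophagy receptor, had a difference of 0.52 (SE 0.23, adjusted p = 0.364) with groups that overlapped, and of 0.34 without young mouse 3. Sqstm1, which encodes the autophagy receptor p62, was at 5.85, 5.59 and 4.89 against 6.04, 5.81 and 5.88. Its difference of 0.47 (SE 0.26, adjusted p = 0.457) rested largely on young mouse 3, and without that mouse it was 0.19.

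Of 12 genes for mitophagy receptors and the autophagosome proteins that bind them, 7 were lower and 5 higher in mean, with a median of -0.17 and no unadjusted limma p under 0.05. Fkbp8, an outer membrane receptor, had a difference of -0.34 (SE 0.15, adjusted p = 0.369) and no overlap. Ulk1, the kinase that starts autophagy, had a difference of -0.40 (SE 0.31) with overlapping groups. Nlrx1, a mitochondrial protein of the NOD-like family, had a difference of -0.47 on its brightest probe (SE 0.23, adjusted p = 0.407) and 0.71 on its other probe. The hypoxia-responsive receptors Bnip3 and Bnip3l had differences of -0.16 (SE 0.28) and -0.20 (SE 0.19), and Fundc1, a further hypoxia-linked receptor, of -0.36 (SE 0.29), all with overlapping groups. The Fundc1 difference was -0.14 without aged mouse 1, -0.15 without young mouse 3 and -0.79 within row 1 of the slide. Other probes of Bnip3l gave -0.22, -0.27 and 1.64, and those of Bnip3 gave -0.00013 and 0.37, so the probes of both genes disagreed.

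A list of 12 genes for general mitochondrial content gives the background for the members. It held genes of the respiratory chain, the citric acid cycle and outer membrane pores, and also Tfam and Hspd1. In mean, 11 of 12 were lower and 1, Tfam, higher in aged mice, with a median of -0.28, close to the -0.29 of the members. None passed an adjusted p of 0.05, 3 (25%) had an unadjusted limma p under 0.05 in the lower direction, and 5 (41.7%) had all aged mice below all young mice. The shares of all genes were 8.38% and 13.9%. The signals of the 12 genes, summed as multiples of the 75th percentile of each array, ran from 2955 to 3569 in young and from 2630 to 2744 in aged mice. On the same scale the 7 members summed to 528 to 642 in young and 454 to 542 in aged mice. Vdac2, an outer membrane channel, had a difference of -0.58 (SE 0.20, adjusted p = 0.282), Cox5b, a subunit of cytochrome oxidase, of -0.48 (SE 0.19, adjusted p = 0.324), and Cycs, cytochrome c, of -1.33 (SE 0.47, adjusted p = 0.287). For Cycs the groups overlapped on this probe, with aged mouse 1 at 7.82 and young mouse 1 at 7.65. Within row 1 of the slide its difference was -0.47. A second Cycs probe gave -0.49 with no overlap. Whether the members differed from these content genes was not tested. In RNA of a whole muscle, fewer cells of a type and less RNA per cell cannot be told apart.

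Markers of other cells and fibre types stand beside these values. Of all genes, 8.38% had an unadjusted limma p under 0.05 in the lower direction and 6.07% in the higher. In 7.92% of all genes, every aged mouse was above every young mouse. All 8 markers of slow fibres, which hold more mitochondria than fast glycolytic fibres, were lower in mean in aged mice, with a median of -0.59, 4 unadjusted limma p under 0.05 and summed signals of 1376 to 1829 in young and 828 to 1264 in aged mice. Of 7 tested fast fibre markers, 6 were lower, with a median of -0.17 and summed signals of 4322 to 5252 against 3656 to 4510. The remaining 1 was higher by 1.29, with all aged mice above all young mice. Tnni2 was the fast fibre marker that was not among the genes tested. The general muscle markers were all measured, as the labelled tissue requires. In mean, 7 of 8 were lower, with a median of -0.19 and summed signals of 4581 to 5515 against 3880 to 4932. Myh1, Myh4 and Tnnt3 are in both this list and the fast fibre list, so the values of these lists are partly shared. All 7 tested erythrocyte markers (of 9, without Hbb-bs and Ahsp) were lower, with a median of -1.08, 6 unadjusted limma p under 0.05 and summed signals of 642 to 936 against 292 to 465. Of 10 tested macrophage markers, which leave out Cd163, 8 were higher, with a median of 0.60 and 5 unadjusted limma p under 0.05, and in 7 all aged mice were above all young mice. Their summed signals overlapped, at 43.9 to 51.9 in young and 50.3 to 52.4 in aged mice. Of 10 Schwann cell markers 8 were lower and 2 higher, with a median of -0.76 and a highest difference of 1.33. In the lower direction 7 had an unadjusted limma p under 0.05, and 1 of them passed the adjusted threshold. In the higher direction 1 had an unadjusted limma p under 0.05, and in 1 all aged mice were above all young mice. Their summed signals overlapped, at 26.0 to 45.8 in young and 25.4 to 42.4 in aged mice. Adipocyte markers without Lep were lower in 6 of 7, with a median of -0.24 and summed signals of 147 to 155 against 113 to 149. Endothelial markers were lower in 3 of 6, with a median of -0.13 and summed signals of 31.1 to 34.7 against 21.4 to 29.9. The part of fibre type, blood or other cells in the member values was not tested.

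**Figure D5:**
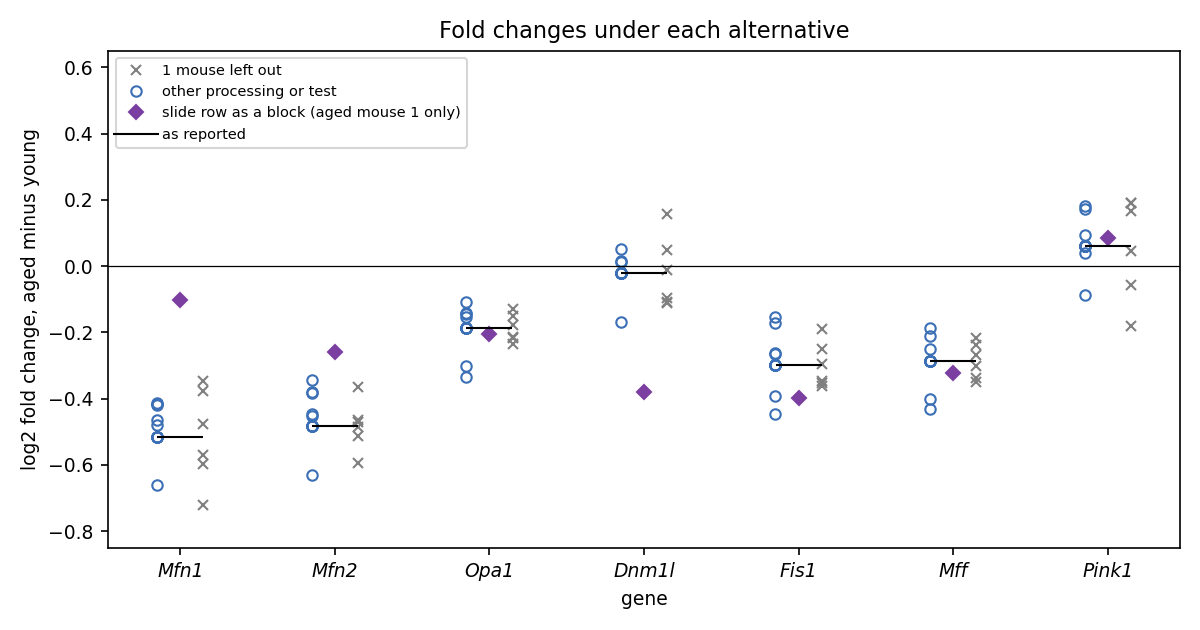
Log2 difference between aged and young mice for each member as reported (line), under other processing or tests (circles), with the slide row as a block (diamonds, aged mouse 1 against the young mice) and with 1 mouse left out (crosses). Mfn1, Mfn2, Opa1, Fis1 and Mff stay below 0 throughout, while Dnm1l and Pink1 lie on both sides.

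Genes with a profile over the 6 mice most like those of the 3 members with the smallest p were found by the root mean square difference of log2 profiles, each centred on its own mean. Over 12677 candidate genes, those nearest to Mfn2 were Hoxd9 (0.009) and Zfp219 (0.024), to Mfn1 Cd1d1 (0.05) and Npr2 (0.05), and to Mff Tlr9 (0.03) and Rasl12 (0.03). A looser limit held many genes. Of the candidates, 13.8% lay within 0.2 of the Mfn2 profile, 4.87% within 0.2 of the Mfn1 profile and 28.3% within 0.2 of the Mff profile.

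The number of arrays limits the precision. The 95% confidence intervals of the members were between 0.72 (Opa1) and 1.21 (Pink1) wide on the log2 scale.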

How the data were processed

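Total gastrocnemius RNA of 3 young and 3 aged male mice was labelled with Cy3 and hybridized to a single-colour Agilent mouse array, 1 per mouse. The authors deposited Feature Extraction files whose processed signal is an intensity on a linear scale, background-subtracted by that software and without scaling across arrays. The same values stood in the deposited series matrix. The file headers name Feature Extraction version 11.0.1.1, and the submitters' processing notes name 9.5. The array normalization and test of the study are not given in the sources used here.

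Of 62976 spots, 59305 were not controls. Spots marked as outliers were left out (161 to 212 per array), and log2 signals were averaged per probe and set against the 75th percentile of the array. RefSeq accessions (GRCm38.p6 table) named 28331 of 55681 probes. The array was designed on another build, so gene coordinates are not given and those of the upstream sequences come from RefSeq. A gene was its brightest probe among those well above background on at least 3 arrays (20901 genes). Where a probe had no symbol, its identifier on the array stood for the gene. The age groups were tested in R 4.3.3 with limma 3.58.1 (lmFit, eBayes) with Benjamini-Hochberg adjustment over all genes, or over all 28003 kept probes for the other probes of a gene. The fit was also run on simulated data with changes larger than those of the members, so that run does not bear on differences of the reported size.

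Between 48.7% and 53.8% of probes were well above background, and negative controls had a mean net signal of 61.3 for aged mouse 1 and 51.9 to 55.1 for the others.

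The members, the gene and marker lists and the alternatives were chosen with earlier results of these data known. Named partners were Oma1, Yme1l1, Mief1, Mief2, Bnip3, Bnip3l and Fundc1, and the 3 genes with the smallest p of each list. A gene of the lists for Pink1 and for erythrocytes each is not reported here. The alternatives were normexp background correction (offset 50), quantile, median, cyclic loess or other percentile scaling, filters on dim probes, the mean of probes or all probes, a mean-variance trend, the series matrix values, a block for the slide row or the replicate number, and dropping each mouse in turn.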

Additional observations from a re-analysis of the deposited data

How the results depend on the processing

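Under 19 alternatives, 0 members and 0 of the 60 partner genes passed an adjusted p of 0.05, and the log2 differences of Mfn1 (-0.72 to -0.10), Mfn2 (-0.63 to -0.26), Opa1 (-0.33 to -0.11), Fis1 (-0.45 to -0.15) and Mff (-0.43 to -0.19) kept their sign. Several alternatives left the member differences as reported: the series matrix values, the filters on dim probes, all probes, the mean-variance trend and the replicate block. The groups did not overlap for Mfn2, Opa1, Fis1 and Mff. For these genes, dropping 1 mouse or a block for the slide row could not change the sign either. Mfn2 had an unadjusted limma p under 0.05 in 9 of the 19. The count of genes called went from 53 to 8 without a filter on dim probes (36710 genes tested) and to 35 with probes above background on all 6 arrays (18551 tested), and lay between 1 (without aged mouse 3) and 199 (without aged mouse 1) with 1 mouse left out. The median of the 7 members went from -0.29 to -0.15 with quantile normalization, -0.17 with cyclic loess and -0.43 with scaling to the median, a scaling that moved the median of all genes from -0.06 to -0.21. With the slide row as a block, which leaves aged mouse 1 as the aged group of row 1, fusion minus fission went from -0.19 to 0.18. Dnm1l turned to 0.015 with quantile normalization, 0.013 with the percentile over probes detected on all arrays and 0.051 with cyclic loess, and ranged from -0.11 to 0.16 with 1 mouse left out. Pink1 turned to -0.088 with scaling to the median and ranged from -0.18 to 0.19 with 1 mouse left out. Of the partners, Mief2 turned to -0.0085 with scaling to the median. Bnip3 turned to 0.027 with normexp, 0.072 with the mean of probes and 0.44 with the slide row. Bnip3l turned to 0.24 and 0.098 with the last 2 of these, Nlrx1 to 0.12 with the mean of probes and Ulk1 to 0.11 with the slide row. The cause of these turns was not tested.

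Deviations of same-numbered mice correlated at -0.06, -0.27 and 0.03, and those of differently numbered mice at -0.21 to 0.35. With 3 mice per group, these values cannot show whether the replicate numbers pair the mice. With a replicate block, 5 genes were called in place of 53, and 0 members. With 3 arrays per group and the arrays' signal over background, the 95% confidence intervals of all members but Mfn2 included 0.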

Other observations

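Parts of the partner lists were set apart after their values were seen, so their counts are descriptions with no test. The 5 autophagosome proteins of the ATG8 family, which bind mitophagy receptors, were all slightly higher in mean in aged mice. The log2 differences were 0.27 for Gabarapl1 (SE 0.36), 0.24 for Map1lc3a (SE 0.19), 0.19 for Gabarapl2 (SE 0.17), 0.07 for Gabarap (SE 0.15) and 0.02 for Map1lc3b (SE 0.19). Map1lc3b was below the young mean in aged mice 2 and 3 (-0.13 and -0.11). The sizes of these 5 genes under the alternatives were not taken. Scaling to the median of each array moved the median of all genes from -0.06 to -0.21, so the smallest of these signs depend on the scaling. Receptors that link ubiquitin-marked cargo to the autophagosome other than Sqstm1 and Nbr1 gave 0.53 for Tax1bp1 (SE 0.32) and -0.08 for Optn (SE 0.26). Their kinase Tbk1 gave 0.71 (SE 0.65), with young mice at 0.57, 0.08 and -1.73 and aged mice at 0.77, -0.55 and 0.83. Young mouse 3 was the lowest of all mice for Tbk1, and also for Tax1bp1 (2.79). None of these passed an adjusted p of 0.05, and the groups overlapped in each.

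Among the MICOS subunits, Micos10 stood beside Apoo and Chchd3 with a difference of -0.39 (SE 0.17) and all aged mice below all young mice. Immt, the core subunit, had a difference of 0.27 (SE 0.38) with overlapping groups.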
